A study of Zygosaccharomyces parabailii with 12 samples.

Results

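This report covers 280 genes of the yeast Zygosaccharomyces parabailii that lie nearest to the chromosome ends. In the count table every gene identifier carries a letter from A to P for its chromosome and a number that follows the order of genes along it. After the genes with identical copies were set aside, the 9 lowest and the 9 highest numbers of each of the 16 chromosomes were taken, which gave 288 genes at 32 ends. A further 12 genes were left out by name, 8 of them among the 288, so that 280 of the 10085 genes with such an identifier remained. They are called chromosome-end genes below. Set beside the reference annotation of the same strain (ASM198439v2), they started a median of 19.3 kb from the end and at most 52.8 kb, with distances at right ends counted from the last annotated base. Positions alone set the 288 genes, but the rule and the names left out were chosen with earlier results of these data known. Of the 12 genes left out, 8 were higher in lactic acid at 18 h, compared with 4.25% of all genes tested.

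The strain was ATCC 60483, a natural hybrid of 2 Zygosaccharomyces parents, which therefore holds a pair of related copies (homeologs, A and B) of most genes. Cells were grown in bioreactors in Verduyn medium at pH 3, a pH shared by all groups, and RNA was sequenced after rRNA depletion. The 4 groups were cultures with 40 g per liter lactic acid at 18 h, cultures without lactic acid (control) at 18 h, cultures with 40 g per liter lactic acid at 42 h, and controls at 42 h. The earlier time was in exponential growth and the later one after the diauxic shift, when glucose has been used up. Triplicate samples came from the fermentation of each condition, so p-values measure only the spread between these samples, which may be technical. A control library at 18 h (replicate 2) held 4606 counts and was left out, which left 2 libraries of that group and 3 of each other group. Total counts of the 11 libraries ran from 8967267 to 17505293.

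Regions next to the telomeres are known in yeasts as places where gene families grow, are lost and diverge quickly. They often hold genes for transport, for the use of unusual nutrients and for cell adhesion, as well as helicase genes of the telomeric Y elements. In S. cerevisiae, genes close to telomeres can be held down by silencing proteins that spread inward from the telomere, and some of these genes are switched on when nutrients run out. Copies of such genes at several ends can be alike, and reads that fit more than 1 place were dropped by the authors, so counts of such genes may be too low.

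The chromosome-end genes were expressed at low levels in all 4 groups. Of the 280 genes, 198 passed the filter (a CPM, that is counts scaled to the library size, of 1 or more in 3 libraries of lactic acid or 3 of control), which is 70.7%, compared with 99.1% of the 9548 other genes without identical copies. No count was found in any library for 13 chromosome-end genes (4.64%) and for 6 other genes (0.0628%). Levels were compared per kb of coding length. The median over chromosome-end genes was 2.5 CPM per kb in lactic acid and 2.86 CPM per kb in control at 18 h, where other genes had medians of 25.7 and 28.6 CPM per kb. At 42 h the median was 6.76 CPM per kb in lactic acid and 5.45 CPM per kb in control, and other genes had 26.6 and 28 CPM per kb. The median of other genes was thus 10.3 and 10 times that of chromosome-end genes at 18 h in lactic acid and in control, and 3.93 and 5.14 times at 42 h.

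**Figure D1:**
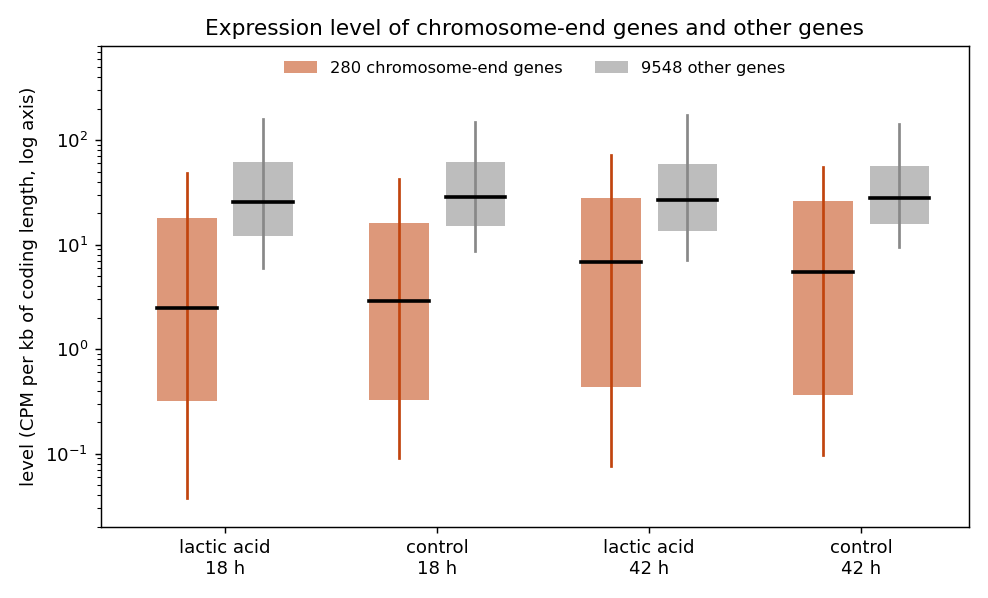
Level of 280 chromosome-end genes (red) and 9548 other genes (gray) in each group, in CPM per kb of coding length on a log axis. Black lines are medians over genes, boxes the middle 50% and thin lines the 10th to 90th percentiles; the red medians of 2.5 to 6.76 lie below the gray boxes in each group.

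Every library showed this difference. Medians over chromosome-end genes were 2.58, 2.81 and 2.23 CPM per kb in lactic acid and 2.65 and 2.93 CPM per kb in control at 18 h. They were 6.4, 6.62 and 5.14 CPM per kb in lactic acid and 5.6, 5.44 and 5.53 CPM per kb in control at 42 h. All libraries of 42 h lay above all libraries of 18 h, and lactic acid and control overlapped at each time. The medians of other genes ran from 25.6 to 28.8 CPM per kb over the 11 libraries. Some chromosome-end genes were strongly expressed all the same, since 7 of the 280 in lactic acid and 8 in control at 18 h, and 11 in lactic acid and 6 in control at 42 h, lay above the 90th percentile of other genes.

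Fewer of the outermost genes passed the filter, and their levels were the lowest. The filter was passed by 55 of the 92 genes of ranks 1 to 3 (59.8%), 72 of 95 of ranks 4 to 6 (75.8%) and 71 of 93 of ranks 7 to 9 (76.3%). Farther in, 87.7% of the 284 genes of ranks 10 to 18 and 99% of the 576 genes of ranks 19 to 36 passed. The median level in lactic acid at 18 h was 0.528 CPM per kb for ranks 1 to 3, 6.18 for ranks 4 to 6, 6.55 for ranks 7 to 9 and 18.6 for ranks 10 to 18. In control at 18 h these medians were 0.647, 5.82, 4.6 and 19.2 CPM per kb, so ranks 4 to 6 and 7 to 9 had no common order. None of the 9 genes at the left end of chromosome 3 passed the filter, whereas all 9 passed at 6 ends (the right ends of chromosomes 4, 12, 14 and 16 and the left ends of chromosomes 8 and 12).

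The genes also differed from the rest in their annotation. Identifiers of 76.4% of the chromosome-end genes carried no letter for the parental genome, compared with 4.59% of other genes. A missing letter does not mean that a gene has no assignment. By the annotation at hand 51 chromosome-end genes were A, 23 B and 34 N, while 37, 22 and 7 carried these letters. An annotation that covers genes whatever their expression was at hand for chromosomes 1 and 2 and held 26 of the chromosome-end genes. Of these, 15 (57.7%) were marked N, that is, could not be assigned to either parent, compared with 157 of 1933 other genes (8.12%). A homolog in S. cerevisiae was listed for 1 of the 26 (3.85%) and for 89.8% of the others, and a homeolog for 6 (23.1%) and for 90% of the others. Names of any kind were at hand for 66 of the 280 genes. Apart from those 26, the names came from lists of genes that the study picked for their changes in these samples, so named genes are called more often by construction, and unnamed genes are given by identifier only.

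Chromosome-end genes held 1.27, 1.22 and 1.18% of the nuclear counts in the lactic acid libraries and 0.707 and 0.789% in the control libraries at 18 h. At 42 h they held 1.31, 1.25 and 1.16% in lactic acid and 1.75, 0.925 and 0.967% in control. The lactic acid libraries lay above the controls at 18 h, while at 42 h control replicate 1 lay above all others. A single gene, D07410, accounted for that library, whose share without it was 0.935%. Without the 5 most abundant genes (D07410, H00190, N04980, J05790 and A00160) the shares were 0.67, 0.679 and 0.699% in lactic acid and 0.565 and 0.611% in control at 18 h, and 0.746, 0.809 and 0.782% in lactic acid and 0.766, 0.737 and 0.74% in control at 42 h.

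Ordered by level per kb, averaged over the 4 groups, the most abundant were D07410 (no name at hand, 1674 CPM per kb), O00190 and I00190 (1418 and 1368 CPM per kb), H00190 (489 CPM per kb), A00160 (407 CPM per kb), J05790 (322 CPM per kb), F00140 (235 CPM per kb) and L05290 (190 CPM per kb). O00190 and I00190 are homeologs of ATP15, a small subunit of the mitochondrial ATP synthase in S. cerevisiae. H00190 corresponds to LYS9, a saccharopine dehydrogenase of lysine synthesis, A00160 is a probable glycolate oxidase and J05790 a transporter of the major facilitator superfamily. These 8 genes do not share a direction over the groups, as the values below show.

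The first question was which chromosome-end genes answered to lactic acid at 18 h. A gene was called when edgeR's quasi-likelihood test over the 9683 genes that passed the filter gave an adjusted p below 0.05 and a change of at least 2-fold. In lactic acid 30 chromosome-end genes were higher, which is 15.2% of the 198 tested and 10.7% of the 280, whereas 4.25% of all tested genes were higher. Another 34 were lower (17.2% of those tested), compared with 20.7% of all tested genes. Of the 135 tested genes whose identifiers carry no letter for the parental genome, 26 were higher and 18 lower. These counts were 2 and 7 for the 35 with letter A, 2 and 4 for the 22 with B, and 0 and 5 for the 6 with N. The median log2 fold change was 0.18 over the 198 genes and 0.07 over all tested genes. With no filter it was 0.03 over the 267 chromosome-end genes with any count and 0.06 over other genes. Genes with a mean below 10 CPM and above it gave similar shares among those higher, 15.7% of 70 and 14.8% of 128, compared with 5.22 and 3.8% of other genes of those levels (6.62% of all tested genes below 10 CPM).

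At 42 h 33 chromosome-end genes were higher in lactic acid (16.7% of those tested, compared with 7.05% of all tested genes) and 22 were lower (11.1%, compared with 9.9%). Genes whose identifiers carry no letter for the parental genome made up 27 of those higher and 14 of those lower. The median log2 fold change was 0.16 over the 198 genes and -0.06 over all tested genes. With no filter it was 0.06 over the 267 chromosome-end genes with any count and -0.06 over other genes. When libraries were scaled by their totals alone, the median of all tested genes shifted to 0.28 at 18 h and -0.39 at 42 h, and 16 chromosome-end genes were higher and 40 lower at 42 h, compared with 3.51% of all tested genes higher and 19.5% lower in that fit. The median of chromosome-end genes then was 0.42 at 18 h and -0.16 at 42 h, above that of all tested genes at both times. Higher at both times were 11 genes (5.56% of those tested, compared with 1.46% of all tested genes), and lower at both times 13 (6.57%, compared with 5.11%). Lower at 18 h and higher at 42 h were 2 genes (1.01%, compared with 0.599%). Of the 198 genes tested, 11 passed the filter through lactic acid libraries only and 8 through control libraries only. The other 179 included 26 higher and 31 lower genes for 18 h, and for 42 h 24 and 16. Calls were spread over the genome, with a gene higher in lactic acid at 19 of the 32 ends at 18 h and at 22 at 42 h.

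**Figure D2:**
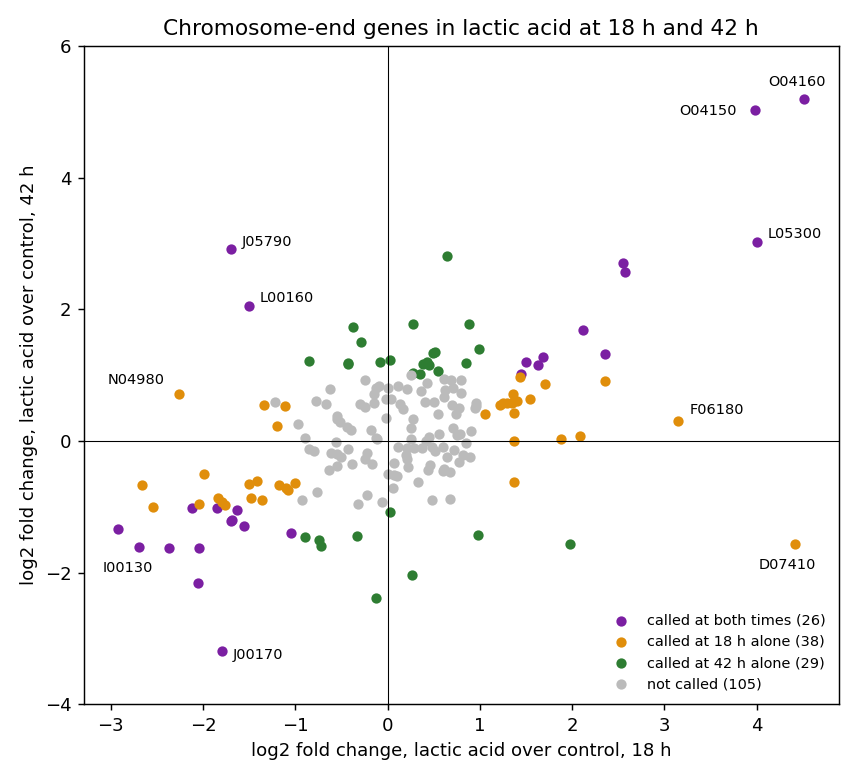
Log2 fold change of lactic acid over control at 42 h (vertical) against that at 18 h (horizontal) for the 198 chromosome-end genes tested, each point a gene, colored by when it was called. Most genes called at both times lie in the same direction, and J05790 and L00160 are the 2 that lie lower at 18 h and higher at 42 h.

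The largest increase in lactic acid was that of O04160, a protein of unknown role at the right end of chromosome 15. It had 28.9, 29.2 and 9.16 CPM in lactic acid and 1.41 and 0.651 CPM in control at 18 h, and 90.8, 99.9 and 26.1 CPM in lactic acid and 2.69, 1.42 and 1.62 CPM in control at 42 h. Groups did not overlap at either time, and replicate 3 was the lowest of the lactic acid libraries at both. The log2 fold change was 4.52 ± 0.81 (SE) at 18 h and 5.2 ± 0.62 at 42 h, with adjusted p of 0.000443 and 3.06e-05 by edgeR. Of its neighbors, O04150 and O04170 were also higher at both times. O04150, which bears the same name and overlaps O04160 at its end in the reference annotation, so that reads there are uncertain, had 22, 26 and 5 counts in lactic acid and 2 and 0 in control at 18 h, and 72, 65 and 16 counts in lactic acid and 3, 2 and 0 in control at 42 h. O04170, related to the arsenite pump Arsenical-resistance 3 of S. cerevisiae, was higher by 2.58 ± 0.69 at 18 h and 2.57 ± 0.40 at 42 h on the log2 scale. Both O04150 and O04170 passed the filter through lactic acid libraries only, so their direction was in part set by it. O04140, an unnamed gene that passed in both media, was higher by 1.54 ± 0.25 at 18 h. At 42 h its change of 0.64 was below 2-fold. O04130 was called higher at 18 h only, and O04180 and O04190 did not pass the filter. O04150 and O04170 were chosen after their values were seen.

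L05300, related to soluble epoxide hydrolases, which open reactive epoxides, had 4.11, 5.08 and 2.79 CPM in lactic acid and 0.331 and 0.177 CPM in control at 18 h. At 42 h it had 3.02, 2.44 and 1.19 CPM in lactic acid and 0.138, 0.101 and 0.54 CPM in control. Lactic acid lay above control in every library at both times, by 4 ± 0.57 and 3.02 ± 0.56 on the log2 scale (adjusted p = 8.37e-05 and 0.000638), and it passed the filter through lactic acid libraries only. F06180, related to multidrug transporters of the major facilitator superfamily, had 14.3, 16.8 and 13.5 CPM in lactic acid and 1.9 and 1.48 CPM in control at 18 h, an 8.89-fold difference (adjusted p = 5.46e-07). At 42 h it had 29.9, 32.4 and 34.2 CPM in lactic acid and 31.1, 21.6 and 25.1 CPM in control, where the groups overlapped. Its neighbor F06170, an aminocyclopropane-carboxylate deaminase, which breaks down a cyclic amino acid, followed the same course, with 16.3, 14.1 and 15.5 CPM in lactic acid and 3.47 and 3.73 CPM in control at 18 h but 16.3, 17.1 and 16.2 CPM and 15.5, 14.5 and 17 CPM at 42 h.

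F06260, named after the vacuolar sorting receptor Vps10 of S. cerevisiae, had 136, 158 and 209 CPM in lactic acid and 31.2 and 34.2 CPM in control at 18 h. At 42 h the values were 232, 230 and 279 CPM in lactic acid and 89.5, 95.3 and 113 CPM in control. It was higher in lactic acid by 2.36 ± 0.20 at 18 h and 1.32 ± 0.16 at 42 h on the log2 scale, with no overlap, and with library totals its change at 42 h was 0.99, just below 2-fold. Of the other genes of that name, N00160 was higher by 1.37 ± 0.16 at 18 h and F06250 by 1.5 ± 0.29 at 42 h (adjusted p = 2.68e-05 and 0.000868 by edgeR); both were chosen after their values were seen, and F06250 passed the filter through lactic acid libraries only.

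The ATP15 homeologs had nearly the same values as each other: at 18 h I00190 had 286, 246 and 274 CPM in lactic acid and 97.6 and 76.6 CPM in control, and O00190 had 299, 259 and 272 CPM in lactic acid and 104 and 67.7 CPM in control. At 42 h I00190 had 375, 420 and 611 CPM in lactic acid and 190, 233 and 208 CPM in control. Both were higher in lactic acid, by 1.63 ± 0.21 and 1.69 ± 0.23 at 18 h and by 1.16 ± 0.18 and 1.28 ± 0.20 at 42 h on the log2 scale. They are short genes, and with the trend over coding length removed I00190 was higher by 0.94 at each time, below the 2-fold threshold. At 42 h the calls of both homeologs were also lost with library totals (0.84 and 0.96), and that of I00190 without lactic acid replicate 3 (0.90). LYS9 (H00190) had 1746, 1640 and 1774 CPM in lactic acid and 520 and 537 CPM in control at 18 h, and 187, 250 and 286 CPM in lactic acid and 123, 129 and 145 CPM in control at 42 h. It was 3.25-fold higher at 18 h (adjusted p = 1.11e-05), and at 42 h the 1.82-fold difference was below the threshold of 2-fold.

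Of the 6 oxidoreductases among the named genes, 5 were tested, 4 were higher in lactic acid at 18 h and 1 was lower at 42 h, while 4.25% of all tested genes were higher at 18 h and 9.9% lower at 42 h. Of the 3 tested oxidoreductases named whatever their values, 2 were higher at 18 h. A00160, the probable glycolate oxidase, had 121, 116 and 136 CPM in lactic acid and 45.1 and 46.4 CPM in control at 18 h, and 975, 1040 and 1605 CPM in lactic acid and 588, 597 and 655 CPM in control at 42 h. The groups did not overlap, and the log2 fold change was 1.44 ± 0.21 at 18 h and 0.98 ± 0.18 at 42 h. B00140, a probable short-chain dehydrogenase, was higher by 1.22 ± 0.16 and P02790, related to hydroxydehydrogenases, by 1.35 ± 0.13 at 18 h; with the coding-length trend removed B00140 was higher by 0.83, below 2-fold. A00140, related to L-lactate dehydrogenase, which links lactate and pyruvate, was close to undetected at 18 h, with 2, 0 and 2 counts in lactic acid and 2 and 1 in control. At 42 h it had 0.431, 0.468 and 0.597 CPM in lactic acid and 3.04, 1.82 and 2.85 CPM in control, lower in lactic acid by 2.38 ± 0.37 on the log2 scale (adjusted p = 0.000187 by edgeR). It passed the filter only through these 3 control libraries, where it is high. B00160, related to the mitochondrial lactate-oxidizing cytochrome b2, had 0.929, 1.17 and 2.56 CPM in lactic acid and 2.89 and 2.72 CPM in control at 18 h. All its libraries of 42 h were below 1 CPM, and it did not pass the filter. In a fit without the filter it was lower by 0.88 on the log2 scale at 18 h (adjusted p = 0.0453 by edgeR), below 2-fold. Its homeolog G06460 had log2 fold changes of 0.07 ± 0.34 at 18 h and -0.33 ± 0.25 at 42 h, neither called.

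Among the largest decreases were those of pyruvate decarboxylases and of a pair of Jlp1-like genes. H06390, a pyruvate decarboxylase, which turns pyruvate to acetaldehyde on the way to ethanol, had 6.83, 8.58 and 9 CPM in lactic acid and 34.7 and 32.1 CPM in control at 18 h. Its values at 42 h were 66.6, 62.5 and 58.4 CPM in lactic acid and 205, 189 and 186 CPM in control. It fell by 2.04 ± 0.13 at 18 h and by 1.63 ± 0.11 at 42 h in lactic acid on the log2 scale, with groups apart at both times. The pyruvate decarboxylase G00150 had 6.57, 6.18 and 7.14 CPM in lactic acid and 31.8 and 21.1 CPM in control at 18 h, where it fell by 1.99 ± 0.18, and 168, 140 and 184 CPM in lactic acid and 235, 238 and 227 CPM in control at 42 h, where the change of -0.51 ± 0.14 was below the threshold. A00150, also a probable pyruvate decarboxylase, had at most 0.331 CPM in any library of 18 h and was not called at either time. I00130, a probable relative of the sulfonate dioxygenase Jlp1 of S. cerevisiae, had 2.65, 2.33 and 3.1 CPM in lactic acid and 15.9 and 18.9 CPM in control at 18 h, and 6.04, 5.81 and 3.98 CPM in lactic acid and 16.3, 14.6 and 17.4 CPM in control at 42 h. It fell by 2.69 ± 0.18 at 18 h and by 1.61 ± 0.17 at 42 h. Its homeolog O00130 fell by 1.84 ± 0.25 at 18 h (adjusted p = 5.86e-05), and at 42 h its change was -0.86 ± 0.30.

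D07350, named after the S. cerevisiae flocculin FLO1, a cell wall protein by which cells adhere to each other, had 1.53, 1.44 and 1.47 CPM in lactic acid and 6.12 and 6.21 CPM in control at 18 h. Its values at 42 h were 9.31, 6.84 and 5.97 CPM in lactic acid and 39.7, 30.6 and 29.1 CPM in control. It was lower at both times, by 2.05 ± 0.24 and 2.16 ± 0.17 on the log2 scale (adjusted p = 2.16e-05 and 1.63e-06). Of the 10 transport genes named, 9 were tested, and 2 were higher and 4 lower in lactic acid at 18 h, 4 higher and 3 lower at 42 h. All tested genes had shares of 4.25% (higher) and 20.7% (lower) at 18 h and of 7.05 and 9.9% at 42 h. Of the 9, A00180, N00200 and O04170 passed the filter through lactic acid libraries only and N00210 through control libraries only. The direction of these genes was thus in part set by the filter. J00170, related to the allantoate permease, had 0.517, 0.562 and 0.597 CPM in lactic acid and 5.25, 5.07 and 5.24 CPM in control at 42 h, the largest decrease of that time at 3.2 ± 0.30 on the log2 scale. H00130, a probable efflux pump of the ABC type, had 13.7, 12.7 and 15.9 CPM in lactic acid and 32.9 and 49.8 CPM in control at 18 h, lower by 1.56 ± 0.18, and 12.3, 9.46 and 9.35 CPM in lactic acid and 28.9, 22.7 and 24.7 CPM in control at 42 h, lower by 1.29 ± 0.18. B00150, related to the proline permease Put4, was lower by 1.04 ± 0.27 at 18 h and by 1.4 ± 0.36 at 42 h (adjusted p = 0.0041 and 0.0053 by edgeR) and was chosen after its values were seen. With the coding-length trend removed, H00130 was lower by 0.77 at 18 h and by 0.94 at 42 h, below 2-fold.

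L05250, related to the translation initiation factor TIF4632 of S. cerevisiae, had 151, 145 and 160 CPM in lactic acid and 874 and 903 CPM in control at 18 h, and 160, 149 and 155 CPM in lactic acid and 299.7, 305 and 319.7 CPM in control at 42 h. It fell by 2.55 ± 0.11 at 18 h (adjusted p = 4.8e-08). L00170, a homolog of CBF1, which binds centromeres and methionine gene promoters, had 13.1, 15.3 and 16.4 CPM in lactic acid and 86.3 and 103 CPM in control at 18 h, a fall of 2.66 ± 0.27. Later, at 42 h, it had 86.4, 45 and 38.6 CPM in lactic acid and 95.6, 89.2 and 85.3 CPM in control, where the groups overlapped. Its change of -0.67 at 42 h was below 2-fold, and without lactic acid replicate 1 it was -1.13 and called. The neighboring unnamed gene L00180 was lower by 1.76 ± 0.22 at 18 h. The DIM1 homologs I00140 and O00140, which modify ribosomal RNA in S. cerevisiae, were lower at 42 h by 1.59 ± 0.19 and 1.44 ± 0.18. I00140 then had 8.45, 6.37 and 5.47 CPM in lactic acid and 20.9, 22.1 and 18.6 CPM in control.

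The list of Y-element and plasmid genes held 7 genes, 6 helicase genes of the Y elements and the plasmid gene REP1 (B00110). Of the 4 that passed the filter, M00100, E07220 and M00110 passed through control libraries only and were named because the study listed them, so their lower level in lactic acid was in part set by how they were chosen. The fourth, A00110, was named whatever its values and fell by 1.11 ± 0.33 in lactic acid at 18 h. M00100, the outermost gene at the left end of chromosome 13, had 2, 4 and 1 counts in lactic acid and 14 and 24 in control at 18 h, and 39, 16 and 4 counts in lactic acid and 101, 30 and 45 in control at 42 h. E07220 had 4, 1 and 2 counts in lactic acid and 5 and 13 in control at 18 h. The groups were apart at 18 h in both genes, and those of M00100 overlapped at 42 h. Without control replicate 3 at 18 h neither gene, nor A00110 of the same family, was called at that time, with adjusted p of 0.0875, 0.223 and 0.128 by edgeR. At 42 h M00100 was not called without control replicate 1 or without lactic acid replicate 2 or 3, nor E07220 without lactic acid replicate 2 or 3. M00110, of the same family, had 13, 7 and 2 counts in lactic acid and 15 and 20 in control at 18 h and was not called. These genes have near copies, and how many of their reads were dropped is not known. Of the 19 outermost genes (rank 1) that passed the filter, named or not, 2 were higher and 8 lower in lactic acid at 18 h, and 3 were higher and 6 lower at 42 h. Over all tested genes the shares at 18 h were 4.25% (higher) and 20.7% (lower), and those at 42 h 7.05 and 9.9%. For ranks 1 to 3 together 27.3% of the tested genes were lower at 18 h, compared with 9.72% for ranks 4 to 6, 16.9% for ranks 7 to 9, 10.4% for ranks 10 to 18, 24.4% for ranks 19 to 36 and 20.8% for rank 37 and more.

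**Figure D3:**
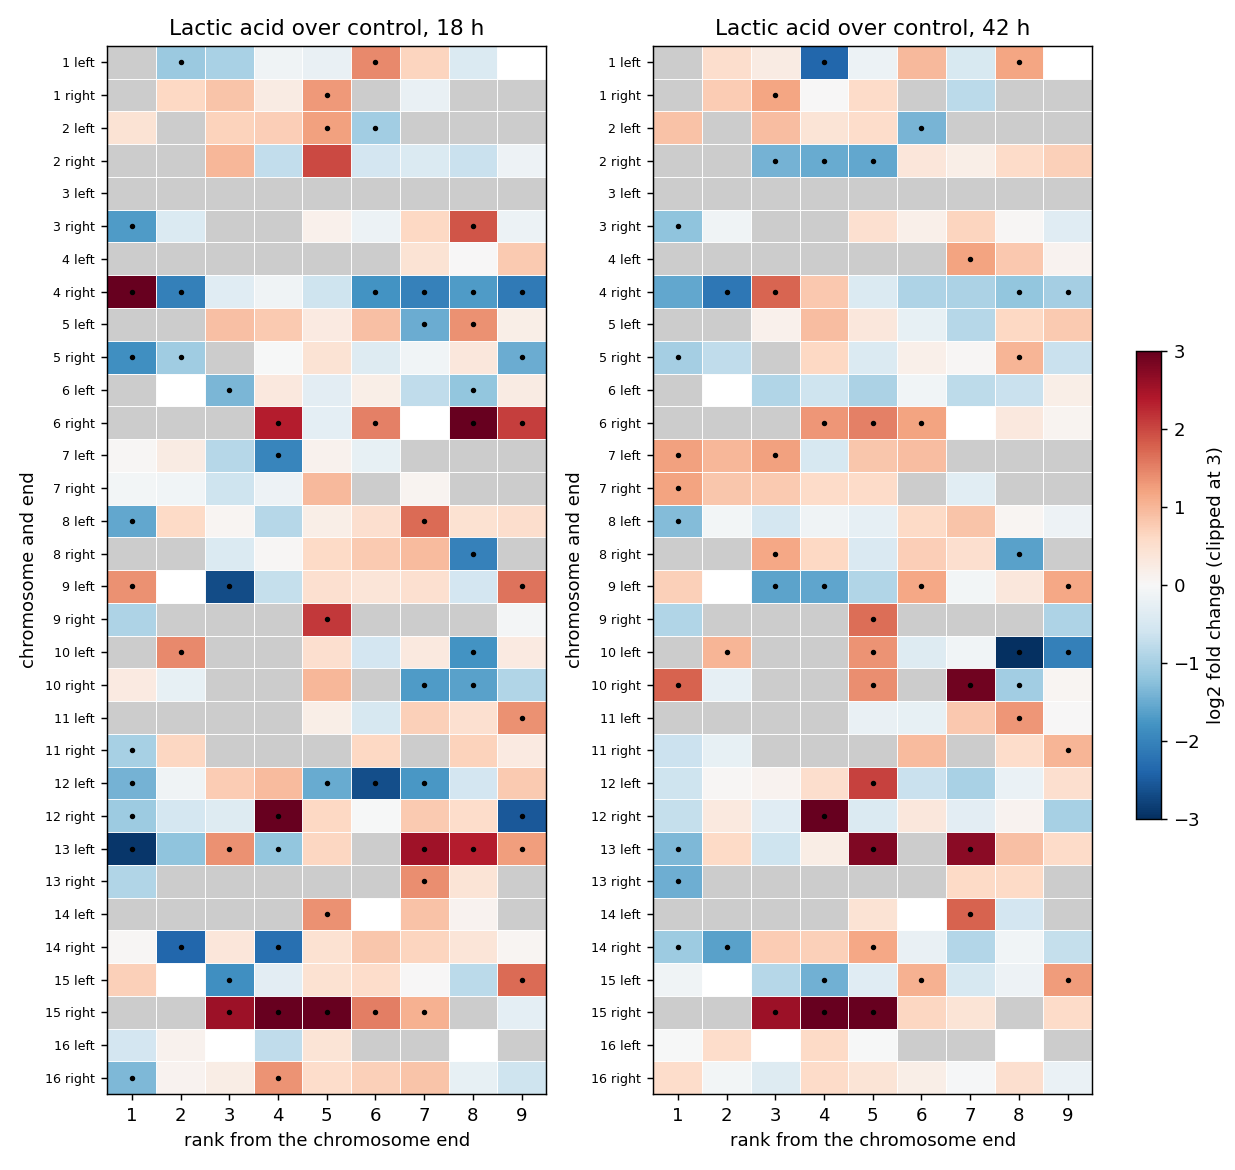
Log2 fold change of lactic acid over control at 18 h (left) and 42 h (right) for the chromosome-end genes, with the 32 ends as rows and the rank from the end as columns. Red is higher and blue lower in lactic acid, gray marks genes that did not pass the filter, white squares genes left out by name and black dots the genes called; at the right end of chromosome 15 ranks 3 to 5 are red at both times.

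At the right end of chromosome 4, chosen after its values were seen, all 9 genes were tested. In lactic acid at 18 h 5 of the 9 were lower and 1 was higher, compared with 20.7 and 4.25% of all tested genes. D07270, the innermost of the 9, had 1.59, 2.61 and 1.71 CPM in lactic acid and 9.18 and 8.04 CPM in control at 18 h, lower by 2.11 ± 0.57 (adjusted p = 0.00594). At 42 h it had 56.6, 24.5 and 12.7 CPM in lactic acid and 75.7, 58.6 and 56 CPM in control, where the groups overlapped and its call was lost when any of 5 single libraries was left out. Its next neighbors D07280, D07290 and D07300, chosen after their values were seen, were lower by 1.69, 2.04 and 1.79 on the log2 scale at 18 h (adjusted p = 0.00454, 0.000352 and 0.00335 by edgeR). D07330 at the same end went the other way at 42 h, with 150, 122 and 118 CPM in lactic acid and 38.9, 38.2 and 39.8 CPM in control, higher by 1.74 ± 0.15.

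The outermost gene of that end, D07410, varied most. It had 3341, 2862 and 2179 CPM in lactic acid and 91.8 and 171 CPM in control at 18 h, and 1572, 478 and 656 CPM in lactic acid and 7326, 217 and 441 CPM in control at 42 h. At 18 h the groups did not overlap and the log2 fold change was 4.41 ± 1.32 (adjusted p = 0.0104), but the call was lost without control replicate 1 (adjusted p = 0.0792) or 3 (0.0528). At 42 h the groups overlapped, and the log2 fold change of -1.56 ± 0.98 was not called and turned to 1.46 (adjusted p = 0.0332 by edgeR) without control replicate 1. No name was at hand for it.

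**Figure D4:**
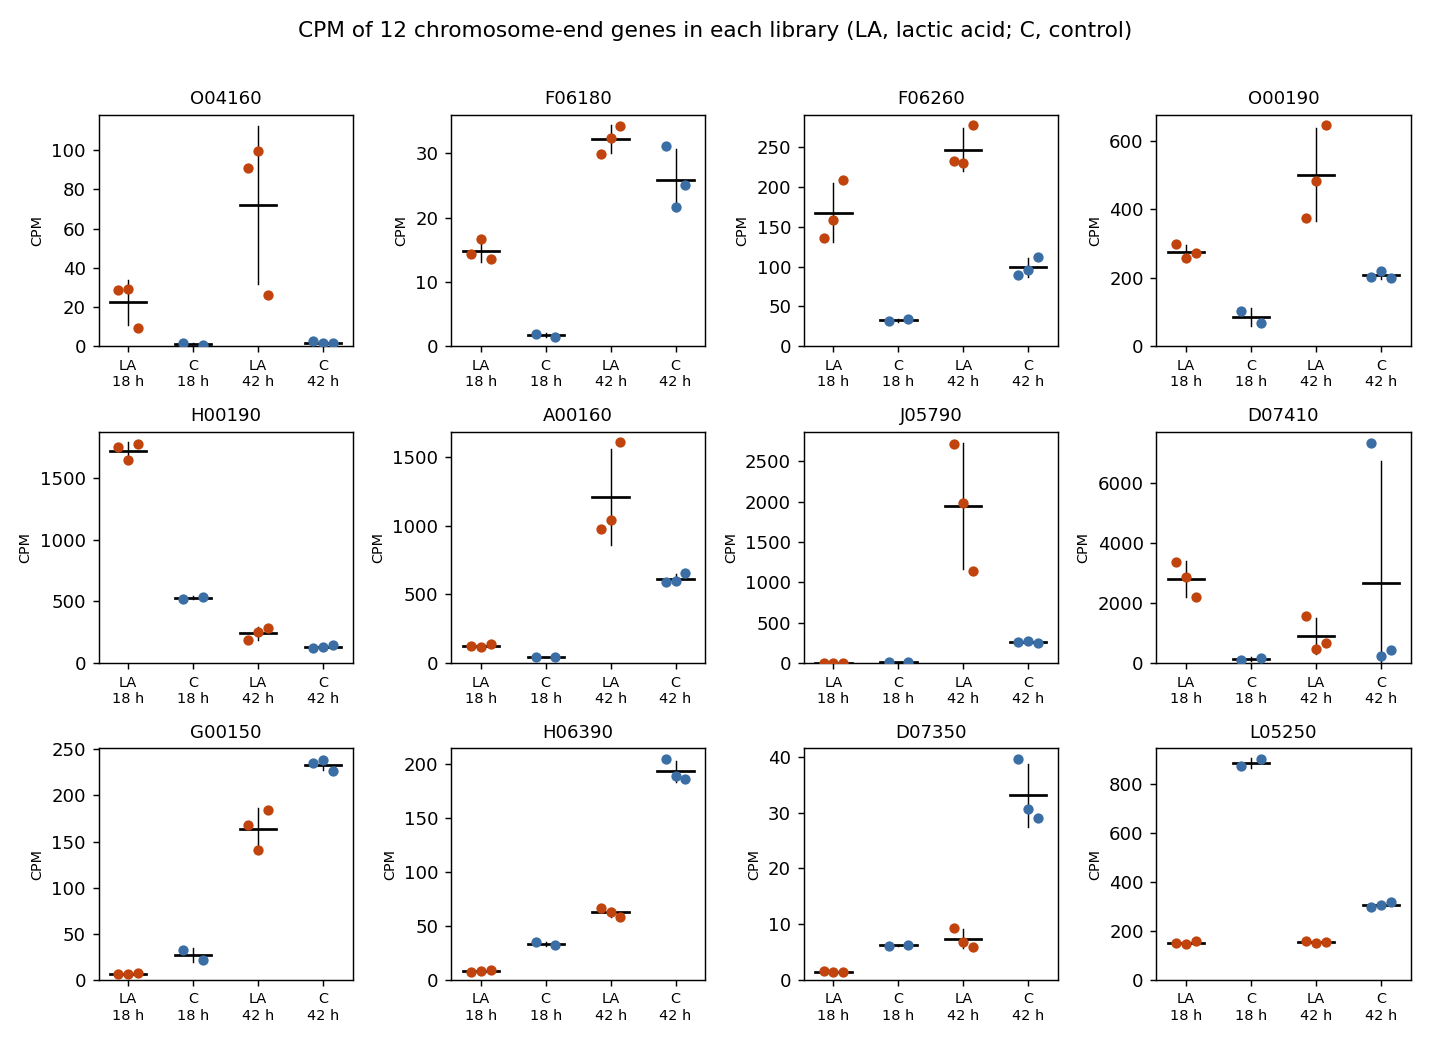
CPM of 12 chromosome-end genes in each of the 11 libraries (red, lactic acid, LA; blue, control, C), with group means as bars and SD as thin lines, on axes that start at 0. O04160 lies at 9.16 to 99.9 CPM in lactic acid and at 0.651 to 2.69 CPM in control, and D07410 shows the single control library of 7326 CPM at 42 h.

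J05790 and L00160 were lower in lactic acid at 18 h and higher at 42 h. J05790, the transporter, had 3.91, 5.01 and 4.04 CPM in lactic acid and 16.3 and 11.9 CPM in control at 18 h, but 2713, 1984 and 1146 CPM in lactic acid and 264, 267 and 247 CPM in control at 42 h. Its log2 fold change was -1.70 ± 0.31 at 18 h and 2.91 ± 0.27 at 42 h, with groups apart at both. L00160, an unnamed gene next to L00170, had 23.7, 26.6 and 29.7 CPM in lactic acid and 80.4 and 70.4 CPM in control at 18 h, but 1084, 505 and 308 CPM in lactic acid and 160, 159 and 140 CPM in control at 42 h. The log2 fold change of L00160 was -1.50 ± 0.38 at 18 h and 2.05 ± 0.34 at 42 h, and with the coding-length trend removed it was -0.89 at 18 h, below 2-fold. N04980, a homolog of the glutamate synthase GLT1, which makes glutamate from glutamine, had 235, 228 and 150 CPM in lactic acid and 887 and 1067 CPM in control at 18 h, and 1365, 731 and 378 CPM in lactic acid and 542, 471 and 503 CPM in control at 42 h. It was lower by 2.26 ± 0.39 at 18 h, and at 42 h the groups overlapped, with a change of 0.71 ± 0.35 that was not called. In J05790, L00160 and N04980 replicate 1 was the highest and replicate 3 the lowest lactic acid library at 42 h. Over all 198 genes tested, replicate 1 was the highest of these libraries in 89 and replicate 3 the lowest in 101. Without this replicate 1, 11.4% of the 280 genes were lower in lactic acid at 42 h, compared with 7.86% with it. Over all tested genes these shares were 13.4 and 9.9%. The cause of this spread was not tested.

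Further genes higher in lactic acid had lower levels or no name. C08790, a probable S-formylglutathione hydrolase of the serine hydrolase family, was higher by 1.88 ± 0.26 and K00190 by 1.37 ± 0.13 at 18 h. I05890, without a name, had 2.85, 2.47 and 2.95 CPM in lactic acid and 0.827 and 0.473 CPM in control at 18 h and was higher at both times, by 2.12 ± 0.33 and 1.68 ± 0.24. M00150, which passed the filter through lactic acid libraries only, was higher by 2.81 ± 0.41 at 42 h, when it had 14.1, 15.5 and 4.98 CPM in lactic acid and 2.42, 1.52 and 0.925 CPM in control. J05880, J05820, K00180 and G00140 were higher at 42 h by 1.77 ± 0.19, 1.40 ± 0.15, 1.33 ± 0.15 and 1.22 ± 0.20. G00140 was below 2-fold at 42 h with library totals (0.88) and without lactic acid replicate 1 (0.97). Lower at 42 h were B10150, M05380 and B10160, by 1.51 ± 0.32, 1.45 ± 0.28 and 1.42 ± 0.37. In these 3 genes control replicate 1 was the highest library, and without it B10160 was lower by 0.92, below 2-fold.

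K00140 and C00210 did not pass the filter. The study counts them to a family of homologs of FIT2, a cell wall protein of S. cerevisiae that helps to retain iron. With its filter, the study reports no evidence of expression for either gene and describes K00140 as not differentially regulated. K00140 and C00210 had 13, 10 and 10 counts and 10, 10 and 7 counts in lactic acid at 18 h, compared with 2 and 1 and with 2 and 2 in control. At 42 h K00140 had 6, 13 and 9 counts in lactic acid and 3, 2 and 2 in control, and C00210 had 14, 5 and 11 in lactic acid and 0, 1 and 1 in control. The groups were apart in all 4 cases. In a fit without the filter, the log2 fold changes were 2.79 at 18 h and 2.15 at 42 h for K00140 and 2.12 at 18 h and 3.88 at 42 h for C00210 (adjusted p = 0.00112, 0.00201, 0.00982 and 0.000367 by edgeR). Both have near relatives in the genome, and the part of misplaced reads in these low counts was not tested. O04100, by the study a homolog of the FFZ2 sugar transporters, did not pass the filter either and had at most 9 counts in a library.

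The second question was how the chromosome-end genes changed between 18 h and 42 h. In lactic acid 88 of the 198 genes tested were higher at 42 h (44.4%, compared with 24.9% of all tested genes) and 32 were lower (16.2%, compared with 24.3%). In control 83 were higher at 42 h (41.9%, compared with 15.6%) and 27 were lower (13.6%, compared with 18.9%). The filter favors genes expressed at 42 h in control, since only 2 control libraries of 18 h were used: 12 of the genes tested reached 1 CPM only in libraries of 42 h and 1 only in libraries of 18 h. With no filter, the 42 h controls were higher in 31.1% and lower in 11.4% of the 280 genes, compared with 15.4 and 18.7% of all genes with a count. The median log2 fold change of 42 h over 18 h was 0.84 in lactic acid and 0.68 in control, and 0.00 and -0.10 over all tested genes. Scaled by library totals these medians were 0.54 and 0.94, against -0.31 and 0.13 over all tested genes. Higher at 42 h in both media were 67 genes (33.8% of those tested, compared with 12.8% of all tested genes), and lower in both 20 (10.1%, compared with 13.8%). A gene higher at 42 h was found at 28 of the 32 ends in lactic acid and at 29 in control. The rise lay mostly in genes whose identifiers carry no letter for the parental genome. Of the 135 such genes tested, 72 were higher and 11 lower in lactic acid, and 71 and 12 in control. For the 35 with parental letter A these counts were 9 and 13 in lactic acid, and 6 and 11 in control. For the 22 with B they were 3 and 7, and 2 and 4, and for the 6 with N 4 and 1, and 4 and 0.

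Among the genes that passed the filter, this change was most frequent in the outermost ones. Only 59.8% of the genes of ranks 1 to 3 passed. Of all tested chromosome-end genes, 12 reached 1 CPM only at 42 h and 1 only at 18 h, so the filter set their direction in part. Shares by rank without the filter were not determined. For ranks 1 to 3, 58.2% of the tested genes were higher at 42 h in lactic acid and 56.4% in control, compared with 40.3 and 36.1% for ranks 4 to 6, 38 and 36.6% for ranks 7 to 9, 25.7 and 22.5% for ranks 10 to 18, 30.5 and 19.8% for ranks 19 to 36, and 24.1 and 14.5% for the genes of rank 37 and more. Among genes with a mean below 10 CPM, 50% of the 70 chromosome-end genes tested and 20.1% of 766 other genes were higher at 42 h in lactic acid (22.7% of all tested genes of that level). Among genes of 10 CPM or more the shares were 41.4% of 128 and 24.9% of 8692. With all 267 chromosome-end genes that had any count, 65.5% had a positive change in lactic acid and 64.4% in control, compared with 49.7 and 45.5% of other genes.

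**Figure D5:**
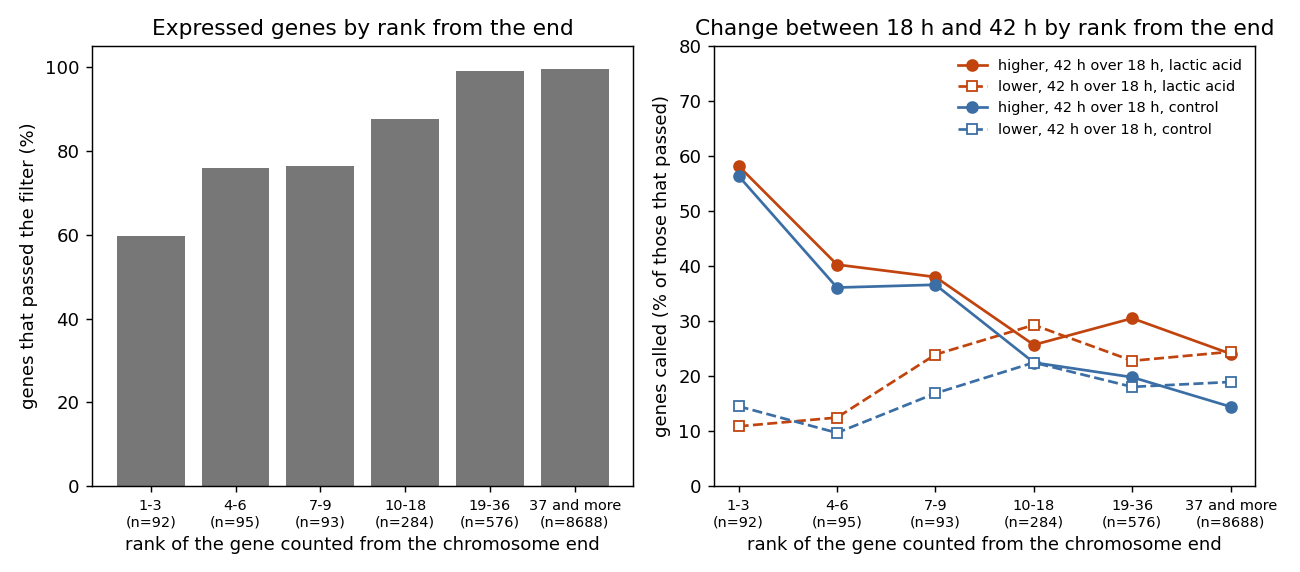
Left, share of genes that passed the filter (%), by rank counted from the chromosome end. Right, share of the tested genes called higher (filled) or lower (open) at 42 h than at 18 h, in lactic acid (red) and control (blue); the filled points are highest, at 58.2 and 56.4%, for ranks 1 to 3.

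The steepest increase in lactic acid was that of J05790 (values above), which was higher at 42 h by 8.81 ± 0.36 on the log2 scale. In control its increase of 4.21 ± 0.34 was smaller than those of D00210 and C08860. D00210, D00200 and C08860, without names, were low at 18 h. D00200 had 41.4, 38 and 40.6 CPM at 42 h and 2.19, 0.755 and 1.4 CPM at 18 h in lactic acid, and 23, 21.3 and 24.3 CPM at 42 h and 1.41 and 1.48 CPM at 18 h in control. C08860 had 27.2, 24.6 and 18.1 CPM at 42 h and 1.33, 0.755 and 0.155 CPM at 18 h in lactic acid, and 23.3, 28 and 25.3 CPM at 42 h and 1.24 and 0.887 CPM at 18 h in control. Both media thus showed the increase with no overlap, by 4.77 ± 0.22 and 3.98 ± 0.26 for D00200, 4.9 ± 0.33 and 4.6 ± 0.37 for C08860, and 4.94 ± 0.33 and 5.62 ± 0.42 for D00210, in lactic acid and in control. The named genes H06390, G00150, A00160 and D07350 were also higher at 42 h in both media. Among these, G00150 had the largest change in lactic acid (4.63 ± 0.17, and 3.15 ± 0.19 in control) and A00160 the largest in control (3.74 ± 0.23, and 3.28 ± 0.19 in lactic acid).

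Among the genes lower at 42 h, P02800, unnamed, had 44.6, 44 and 52 CPM at 42 h and 327, 344 and 405 CPM at 18 h in lactic acid, and 59.9, 61.1 and 63.8 CPM at 42 h and 292 and 324 CPM at 18 h in control, lower by 2.94 ± 0.12 and 2.32 ± 0.13. L05290 was lower by 2.93 ± 0.18 and 1.9 ± 0.18, and N04930 by 2.51 ± 0.09 and 1.74 ± 0.10, in lactic acid and in control. LYS9 (H00190) was lower by 2.84 ± 0.16 in lactic acid and by 2 ± 0.17 in control. F00180, unnamed, had 131, 122 and 132 CPM at 42 h and 503 and 549 CPM at 18 h in control, lower by 2.03 ± 0.12. The left end of chromosome 6, where F00180 lies, had 5 genes lower at 42 h in lactic acid and 4 in control among the 7 tested. The left end of chromosome 8, with LYS9, had 4 and 3 among 9. Over all tested genes 24.3% were lower at 42 h in lactic acid and 18.9% in control. Both ends were chosen after their values were seen. In control P02870, the outermost gene of its end, was lower by 2.98 ± 0.46, J05880 by 2.88 ± 0.19 and O04070 by 2.04 ± 0.24. A10140 was lower by 2.3 ± 0.23 in lactic acid.

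The difference of the lactic acid response between the times was tested as an interaction. It was larger (more positive) at 42 h for 22 chromosome-end genes (11.1% of those tested, compared with 15.5% of all tested genes) and smaller for 20 (10.1%, compared with 9.24%). Among the 60 genes chosen for description, 22 passed this test. Many of the 60 were chosen for large changes at 18 h or at 42 h, so this count is raised by the choice. J05790, L00160, N04980, F06180 and D07410 had differences of 4.61 ± 0.41, 3.55 ± 0.51, 2.96 ± 0.52, -2.85 ± 0.26 and -5.97 ± 1.62 on the log2 scale.

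Homeologs were both present for 10 pairs of chromosome-end genes, 8 with both genes tested. Their log2 fold changes in lactic acid had the same sign in 5 of the 8 pairs at 18 h and in 7 at 42 h. The share over all homeolog pairs was not determined. In the 3 pairs on the left ends of chromosomes 9 and 15 (Jlp1-like genes, DIM1 and ATP15) both genes had the same sign in lactic acid at both times. The DIM1 pair was below 2-fold at 18 h (-0.72 and -0.33). Of the pair B00140 and G06480 both were higher at 18 h, by 1.22 and 0.96 on the log2 scale. Over time the sign was shared in 6 of the 8 pairs in lactic acid and in 7 in control. The Jlp1-like genes I00130 and O00130 went opposite ways in lactic acid (0.98 and -0.84). The pair B10090 and D00200 rose together over time, by 2.87 and 4.77 in lactic acid and by 2.01 and 3.98 in control, with values at 42 h above those at 18 h.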

How the data were processed

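RNA was measured in 12 libraries, of which 11 were used. The authors mapped reads with Bowtie 1.1.2, allowing no mismatch, and counted them with HTSeq 0.6.0, dropping reads with more than 1 placement. The deposited table gives whole-number counts per gene. The authors' normalized signal, CPM scaled by TMM factors with edgeR 3.18.1, served here only as a check: recomputed CPM differed by at most 5.00e-15 (relative). Tables of genes with identical copies, in CPM and RPKM, were not used beyond their identifiers.

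The counts were analyzed in R (4.3.3). Fits used edgeR (version 4.0.16), and alternatives also limma (version 3.58.1) and DESeq2 (version 1.42.0). Entries for pseudogenes and a plasmid (14, holding 0.0576 to 0.344% of the counts) were left out. TMM factors were 0.806 to 1.11. The filter kept 9683 genes that reached 1 CPM in 3 or more lactic acid libraries, or in 3 or more control libraries, both times pooled. A model of the 4 groups was fitted to all of them, contrasts were tested two-sided by edgeR's quasi-likelihood test, p-values were adjusted by Benjamini-Hochberg, and a gene was called at an adjusted p below 0.05 and a 2-fold change. Each standard error was derived from a log2 fold change and its F statistic (change over root F). Coding lengths and gene order came from the reference annotation, since the count table gives no positions. Libraries of 8967267 to 17505293 counts set the precision, which is lowest for genes with few counts. The steps were tested on simulated data.

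The members, the lists and the rules were chosen with earlier results of these data known. The genes described are, for lactic acid at each time, the 10 largest increases and decreases among called genes whose libraries did not overlap and whose higher mean reached 5 CPM; the 5 largest each way between times; the 8 of highest level per kb; those the study's text names; and up to 4 per functional list with the smallest adjusted p. Further genes are marked as chosen after their values were seen, or stand in counts and pairs. Names came from the study's annotation, which was at hand in part. Alternatives were RLE scaling, library totals, limma-voom, DESeq2, other filters, glmTreat, adjusted p alone, all 12 libraries, each library left out, a replicate block, removal of the coding-length trend (a spline of 5 degrees of freedom), 5 or 15 genes per end, and the 12 genes left out by name counted in. No sequence is shown.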

Additional observations from a re-analysis of the deposited data

Results flagged for a closer look

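The lactic acid response differed between 42 h and 18 h, by the interaction test in edgeR with an adjusted p below 0.05 and a difference of at least 1 on the log2 scale, in 22 of the genes described. Many genes were described for large changes at 18 h or at 42 h, so such differences are frequent among them by construction. Values are the log2 fold change at 42 h minus that at 18 h. The response was more positive at 42 h in J05790 (4.61), L00160 (3.55), N04980 (2.96), D07330 (2.11), G00140 (2.07), L00170 (1.999), P02870 (1.88), A00110 (1.63), L05250 (1.55), J05880 (1.49), G00150 (1.48) and I00130 (1.09). It was more negative at 42 h in D07410 (-5.97), F06180 (-2.85), B10160 (-2.41), F06170 (-2.01), C08790 (-1.85), J00170 (-1.40), K00190 (-1.37), O00140 (-1.12), F06260 (-1.04) and L05290 (-1.03). The value of D07410 had an adjusted p of 0.00918 and rests in part on control replicate 1 at 42 h, the library with 7326 CPM. No group had enough libraries for a test of single outlying samples.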

How the results depend on the processing

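The shares below are percentages of the 280 genes, each with the share of all tested genes in the same fit in parentheses. With library totals in place of TMM, 5.71% (3.51%) were higher and 14.3% (19.5%) lower in lactic acid at 42 h, and the interaction was positive in 3.93% (6.48%) and negative in 20.4% (26.9%). With glmTreat against 2-fold, 6.43% (1.54%) were higher and 5.36% (12.2%) lower at 18 h, 4.29% (2.72%) and 2.5% (3.06%) at 42 h, and the interaction gave 2.14% (5.08%) and 1.79% (2.31%). With adjusted p alone, 25.7% (35.5%) were higher at 18 h, 29.3% (28.2%) higher and 18.6% (33.2%) lower at 42 h, 19.3% (41.9%) lower over time in lactic acid and 15% (39.1%) in control, and the interaction gave 17.9% (28.9%) and 16.8% (24.9%). With 15 genes per end, 17.2% (24.3%) were lower over time in lactic acid. All other such shares stayed within 1.5 times those reported. With single libraries left out, the share lower in lactic acid at 42 h was lowest without control replicate 1 of that time, at 5.36% (9.61%). It was highest without lactic acid replicate 1 of that time, at 11.4% (13.4%). The positive interactions ran from 5.71% (13.9%) to 9.29% (17.7%).

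Of 2484 values of 57 described genes under the alternatives, 2351 kept direction and side of the threshold, 66 lost and 66 gained the call, and 1 reversed: D07410 at 42 h was 1.46 without control replicate 1 of that time, and its values with single libraries left out ran from -2.25 to 1.46. The causes were not tested.

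Deviations of same-numbered libraries correlated at -0.229 to 0.31. Differently numbered libraries were not set beside them, so whether replicate numbers pair the libraries is not known. With a replicate block 63 genes were called at 18 h, 57 at 42 h, 121 over time in lactic acid and 111 in control, compared with 64, 55, 120 and 110 without it.

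With 2 control libraries at 18 h and triplicates from the same fermentations, differences between independent cultures cannot be assessed. Genes with few counts and genes with near copies are the least certain.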

Other observations

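The 12 genes left out by name were all tested. In lactic acid 8 were higher and 2 lower at 18 h, and 4 were higher and 2 lower at 42 h. At 42 h relative to 18 h, 3 were higher and 6 lower in lactic acid, and 4 higher and 6 lower in control. Of the 198 chromosome-end genes tested, 43 were called in none of the 4 comparisons of lactic acid and of time. The share of all tested genes called in none was not determined, so whether the 43 differ from it is not known.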
